A study of Homo sapiens with 6 samples.

Results

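The genes described are the ZNF zinc finger genes of human chromosome 19, taken as every protein-coding gene on that chromosome whose symbol is ZNF followed by a number. In the 6 tables of raw gene counts, 244 of 57905 genes met this rule. The annotation lists 246 such genes, and ZNF229 and ZNF8, whose identifiers had no match in the tables, were not analysed here. The symbols of 6 of the 244 carry a letter after the number.

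Zinc finger genes of the ZNF type encode proteins with rows of C2H2 fingers, small loops held by a zinc ion that bind DNA. Most of those on chromosome 19 arose by tandem duplication and lie side by side in clusters. Many begin with a KRAB domain, which recruits the corepressor TRIM28 (KAP1) and through it the histone methyltransferase SETDB1, so that the bound site is packed into heterochromatin. Their best known targets are transposable elements, although several members act on single genes.

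The RNA came from NCI-H929 (H929), an established line of human multiple myeloma cells, a cancer of plasma cells. In each reaction 5 μg of total RNA was kept for 1 h at 37 °C, either with 2 μg of recombinant human IRE1 (residues 467 to 977, the cytoplasmic kinase and endoribonuclease part of the sensor of unfolded protein) or without enzyme, and every reaction was stopped at 95 °C for 5 min. Poly(A) RNA was then sequenced, so an mRNA cut by the enzyme keeps only its 3′ piece, and a gene count adds reads from both sides of any cut. There were 3 IRE1-treated and 3 control libraries, described in the design as biological replicates of this 1 line. Because the enzyme met purified RNA in a tube, the comparison concerns RNA in solution and not transcripts inside cells.

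The libraries held 19615715 to 25678499 counts on genes. Both IRE1-treated and control libraries carried the defining genes of plasma cells, with control levels from 3.46 for CD38 to 887 for XBP1 (CPM with TMM scaling, divided by the kilobases of merged exons, the unit of every level given here). CD3D, CD14, CDH5, COL1A2 and DCN, which mark T cells, monocytes, endothelium and stroma, had no count in the controls. Other markers of such cells were present, and so were the epithelial markers KRT18, KRT8 and EPCAM. CD3E stood at a level of 15.5, KRT18 at 16.7, KRT8 at 0.770 and CSF1R at 0.242. Control means were 5.90 normalized counts for CD247, 4.85 for LYZ, 5.86 for COL1A1 and 0.282 for EPCAM. The part of these markers in the results was not tested. A normalized count is a gene's count after division by the TMM-scaled size of its library and return to the size of the mean library.

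The members resemble one another in sequence, which bears on how reads could be assigned. The linker between neighbouring fingers is the best conserved stretch, and the most frequent 18-base run in the members' longest transcripts lies in it. That run occurred 420 times, in 99 of the 244 members (40.6%), against 43 of 256 ZNF genes on other chromosomes (16.8%) and 12 of 18904 other protein-coding genes (0.0635%). The run, in capitals with its flanks, is given at its first occurrence in 4 members with many copies, all in coding sequence and read on the gene's own strand (GRCh37). ZNF208 holds 22 copies (chr19:22157147-22157176, minus strand), ZNF845 holds 15 (chr19:53854966-53854995, plus strand), ZNF729 holds 12 (chr19:22497320-22497349, plus strand) and ZNF676 holds 10 (chr19:22363926-22363955, minus strand).
ZNF208: gagtgcTCATACTGGAGAGAAACCctacag
ZNF845: tagactTCATACTGGAGAGAAACCttacaa
ZNF729: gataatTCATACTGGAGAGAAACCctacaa
ZNF676: gagtatTCATACTGGAGAGAAACCctacaa

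Despite this repeat, most of each transcript could be told apart from other genes. Over the 244 members, a median of 98.5% of the 76-base windows of the longest transcript occurred in no other gene. In 71 members every window was unique, and in 184 at least 90% were. The share was under 50% in 11 members and lowest in ZNF177, at 5.69%. Exons overlapped those of another annotated gene in 150 members, on the same strand in 91 and on the opposite strand in 84. The strand and overlap settings of the counting are not given in the sources used here, so counts of such members are uncertain.

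By pattern search in the coding sequence, 202 of 244 members (82.8%) matched a short pattern for the KRAB A box near the start of the protein. The matches were not checked against a domain annotation, so a KRAB domain may have been missed or wrongly assigned in single members. In what follows, KRAB genes and genes with a KRAB box are those with this match. The median member had 13 matches to a C2H2 finger pattern, counted over the 3 forward reading frames and called fingers here. ZNF428 had the fewest (1) and ZNF729 the most (39).

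At baseline most of the family was detected in H929 RNA, but at low levels. Of the 244 members, 191 (78.3%) passed edgeR's filter on low counts, against 63.0% of all protein-coding genes in the tables. Among the 53 that did not pass, 5 (ZNF177, ZNF625, ZNF506, ZNF729 and ZNF677) had no count in any library, and the highest sum over the 6 libraries was 55 counts, for ZNF492. ZNF177, ZNF625 and ZNF506 share exons with other genes on the same strand. Only 5.69% of the windows of ZNF177 and 23.7% of those of ZNF625 were unique. For these genes the lack of counts need not mean a lack of RNA. The 191 tested members had a median control level of 0.526 (interquartile range 0.254 to 1.05), against 4.14 (1.20 to 12.2) for the other tested protein-coding genes, and 177 of them (92.7%) lay under that second median. In bulk RNA, fewer cells with a transcript and less of it per cell cannot be told apart.

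**Figure D1:**
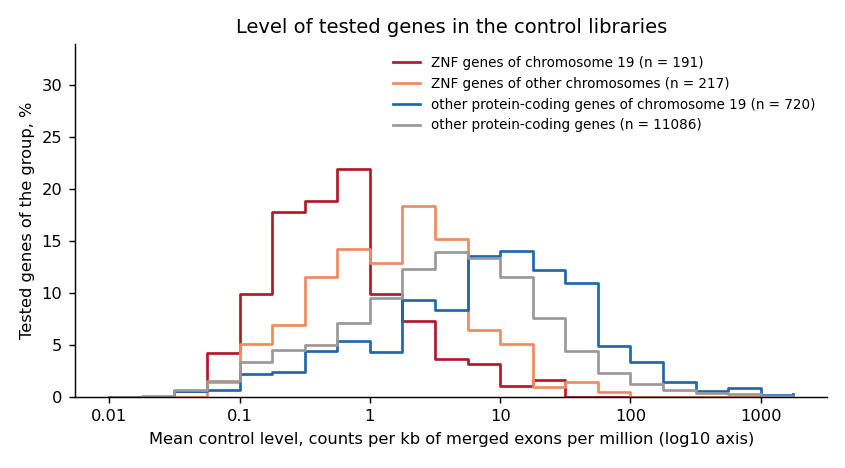
Distribution of control levels (mean of 3 control libraries, CPM with TMM scaling per kilobase of merged exons, log10 axis) as the percent of each group's tested genes per bin, for ZNF genes of chromosome 19, ZNF genes of other chromosomes, the other protein-coding genes of chromosome 19 and the remaining protein-coding genes. The members lie to the left, with a median of 0.526, against 1.60 for ZNF genes elsewhere and 9.71 for the other genes of the chromosome.

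The most abundant members were mostly short ones without a KRAB box. ZNF358 led at a level of 29.4 ± 1.21 (SD, n = 3), with 1301, 1396 and 1402 normalized counts in the controls. ZNF296 followed at 24.3 ± 1.06 and ZNF428 at 24.1 ± 0.878, which differ by less than their spread. ZNF580 stood at 14.4 ± 1.04 and ZNF146, which consists of little more than its fingers, at 12.9 ± 0.743.

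The next 5 were ZNF317 (9.89), ZNF581 (8.77), ZNF414 (8.41), ZNF791 (8.02) and ZNF524 (7.59). Of these 10, 8 lacked the KRAB pattern and 7 had a longest transcript under 2500 bases, and ZNF317 and ZNF791 were the 2 with a KRAB box. ZNF580 and ZNF581 share exons with each other and with CCDC106 on the same strand, so their counts are uncertain. Over all tested members, the 157 with the KRAB pattern had a median level of 0.473 and the 34 without it 2.02. Only 5 members exceeded a level of 10, and 140 lay below 1. The 20 members with most counts held 49.9% of the family's counts.

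The family as a whole took slightly less of the IRE1-treated libraries, and this depended on the scaling. Its share of gene counts was 0.123%, 0.124% and 0.122% in the controls and 0.112%, 0.116% and 0.119% in the IRE1-treated libraries. The groups did not overlap on this scale. After TMM scaling the summed normalized count was 26794, 26847 and 26618 in the controls and 26378, 26437 and 26696 with IRE1. Here IRE1-treated replicate 3 lay above control replicate 3, and the treated mean was 99.1% of the control mean.

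Few members passed the test for a difference between the groups. With edgeR's quasi-likelihood test and Benjamini-Hochberg adjustment over all 14398 tested genes, 7 of 191 members fell below an adjusted p of 0.05 with lower counts after IRE1 and 1 with higher counts, together 4.19%. Over all tested genes the same rule called 22.7%, with 12.4% lower and 10.3% higher, and over tested protein-coding genes 25.3%, with 14% lower and 11.3% higher. Without adjustment, 19 members had a p under 0.05. All 3 IRE1-treated libraries lay below all 3 controls in 21 members (11.0%, against 20% of all tested genes and 22.1% of protein-coding ones) and above them in 16 (8.38%, against 19.1% and 20%), and in 154 members the groups overlapped.

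The median log2 fold change of the 191 members was -0.05 (interquartile range -0.21 to 0.13), against 0.00 over all tested genes, and 108 members (56.5%) were negative. In 134 members the fold change was within 0.25 of 0 on the log2 scale. Read library by library against the control mean, the members' median was 0.01, 0.02 and -0.04 for the 3 control libraries, and -0.12, -0.06 and 0.03 for IRE1-treated replicates 1, 2 and 3. The third treated library thus lay with the controls, and the count of members called lower rose to 13, and higher to 3, when it was left out. In that fit the calls over all genes rose as well, from 1781 lower and 1489 higher to 2221 and 2091. Leaving out control replicate 1 left 1 member called lower and none higher, with 13 members at an unadjusted p under 0.05, and over all genes 972 were then lower and 709 higher.

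ZNF587 had the change that held in every alternative. This KRAB gene (ENSG00000198466, chr19:58361227-58376485) had 145, 167 and 161 normalized counts in the controls and 73.2, 97.2 and 113 with IRE1. Every treated library lay below every control. The log2 fold change was -0.72 (SE 0.147, edgeR adjusted p = 0.00290), from a mean of 157 ± 11.5 to 94.4 ± 19.9 (SD, n = 3), and it stayed past the threshold in all 15 alternative fits. Only 61.6% of its 76-base windows were unique, and its exons overlap ENSG00000268750 on the same strand and ZNF814 on the other.

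ZNF507 and ZNF45 were the called members with no such overlap, and every window of both was unique. ZNF507 (ENSG00000168813, chr19:32836500-32878573), which lacks a KRAB box and stands alone on its stretch of the chromosome, had 430, 393 and 399 normalized counts in the controls and 343, 294 and 326 after IRE1. The groups did not overlap, with a log2 fold change of -0.35 (SE 0.0868, edgeR adjusted p = 0.00983). ZNF45 (ENSG00000124459, chr19:44416776-44439434), a KRAB gene, had 129, 128 and 136 against 97.2, 113 and 93.2, again without overlap. Its log2 fold change was -0.37 (SE 0.129, edgeR adjusted p = 0.0492), just inside the threshold, and the call was lost in 11 of 15 alternative fits.

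ZNF699 showed the largest fold change among the called members, from few counts. This KRAB gene (ENSG00000196110, chr19:9401816-9420514) had 35.5, 37.6 and 32.9 normalized counts in the controls and 16.8, 16.9 and 23.3 with IRE1. The treated libraries were all lower, and the log2 fold change was -0.88 (SE 0.253, edgeR adjusted p = 0.0207). Its exons overlap ENSG00000267510 on the other strand. ZNF490 (ENSG00000188033, chr19:12686914-12750912) had 68.5, 65.6 and 59.7 against 37.2, 44.4 and 48.6, also without overlap, with a log2 fold change of -0.57 (SE 0.182, edgeR adjusted p = 0.0345). In this gene only 43.7% of windows were unique, and its exons overlap those of ENSG00000269693.

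ZNF791, which lies within the span of ZNF490 on the opposite strand, was the most abundant member called lower. It (ENSG00000173875, chr19:12721732-12744654) had 1161, 1226 and 1173 normalized counts in the controls and 903, 983 and 1104 after IRE1. IRE1-treated replicate 3 came nearest to the controls without reaching them, and the log2 fold change was -0.25 (SE 0.0685, edgeR adjusted p = 0.0168). Its exons overlap AC010422.1 on the same strand. ZNF100 (ENSG00000197020, chr19:21905573-21950381) had 135, 141 and 133 against 97.2, 109 and 109, with no overlap and a log2 fold change of -0.37 (SE 0.123, edgeR adjusted p = 0.0384). Its exons overlap CCNYL6 on the other strand.

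ZNF358 (ENSG00000198816, chr19:7580178-7585911), the most abundant member and one without a KRAB box, was the only one called higher. Its exons overlap ENSG00000267952 on the same strand and ENSG00000269371 on the other. It had 1301, 1396 and 1402 normalized counts in the controls and 1710, 1594 and 1400 with IRE1, so IRE1-treated replicate 3 lay within the controls. The log2 fold change was 0.20 (SE 0.0674, edgeR adjusted p = 0.0462), and the call was lost in 10 of 15 alternative fits, among them every fit without 1 library except that without IRE1-treated replicate 3.

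**Figure D2:**
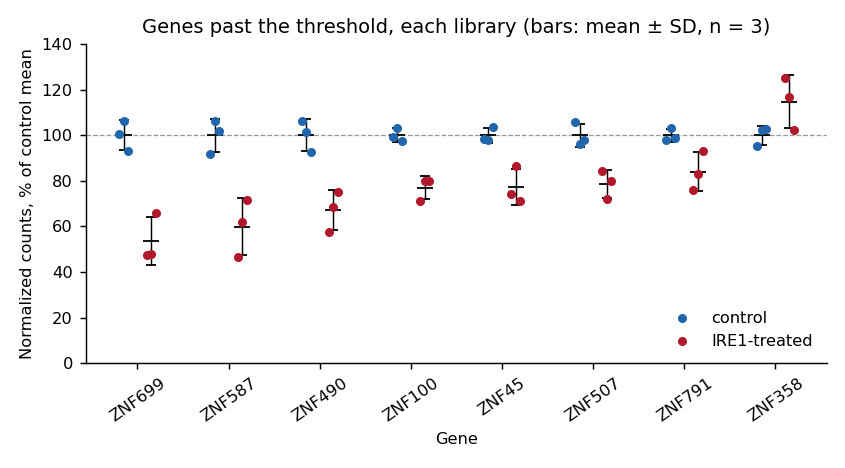
Normalized counts as a percent of the control mean (dashed line) for the 8 members past an adjusted p of 0.05, with 1 point per library (3 control, 3 IRE1-treated) and the mean ± SD of each group. In the 7 members called lower, from ZNF699 to ZNF791, every IRE1-treated point lies below every control point, and in ZNF358 the groups overlap.

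The calls depended on single libraries. Over the 6 fits that each leave out 1 library, ZNF587 was called in 6, ZNF507 in 4, ZNF699 and ZNF791 in 3, and ZNF100, ZNF45, ZNF490 and ZNF358 in 1. ZNF507 lost its call without control replicate 1 or IRE1-treated replicate 2, and ZNF699 and ZNF791 without either of these or without control replicate 2. ZNF45 was called only without IRE1-treated replicate 2, and the other 3 only without IRE1-treated replicate 3. These fits leave 1 group with 2 libraries.

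The largest fold changes of all belonged to members with few counts and did not pass the main test. These were picked out after their values were seen. ZNF66 had 23, 16 and 10 raw counts in the controls and 4, 1 and 11 with IRE1, with a log2 fold change of -1.41 (edgeR adjusted p = 0.0585). It was called lower in the fit without a filter on low counts and in that without IRE1-treated replicate 3. ZNF763 had the highest value, 0.89 (edgeR adjusted p = 0.0778), from 11.0, 7.72 and 7.21 normalized counts against 15.6, 15.9 and 17.5. In this gene 53.5% of windows were unique, and its exons overlap ENSG00000267179 on the same strand.

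Low counts went with fewer calls in the family and outside it, and in each bin of counts that held members the share called was lower in the members. Whether these shares differ was not tested. The tested members had a median of 65.7 normalized counts, against 528 for the other tested protein-coding genes. The median standard error of the log2 fold change was 0.184 in the members and 0.0802 in the others. Below 50 normalized counts, 1.41% of 71 members and 2.5% of 1521 other genes were called. From 50 to 100 counts the shares were 1.79% of 56 members and 7.18% of 808 others. From 100 to 200 counts they were 8.82% of 34 members and 12.7% of 1149 others, and from 200 to 500 counts 5.26% of 19 members and 21.4% of 2380 others. From 500 to 2000 counts, 2 of 11 members (18.2%) and 34.1% of 4122 others were called, and no member had more than 2000.

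**Figure D3:**
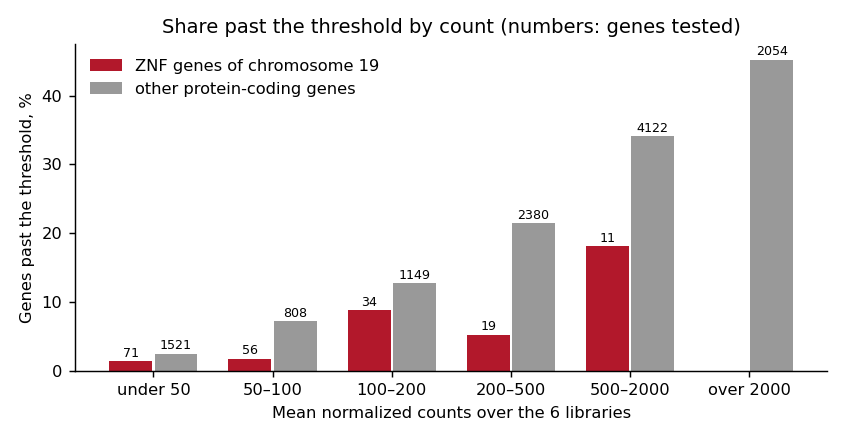
Percent of genes past an adjusted p of 0.05 in bins of mean normalized count, for members and for the other tested protein-coding genes, with the number of genes per bin. The share rises with the count in the other genes, from 2.5% below 50 counts to 45.2% above 2000, a bin that holds no member.

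The relatives and the neighbours of the members had higher counts and more calls. The 217 tested ZNF genes of other chromosomes had a median log2 fold change of -0.08, with 36 lower and 9 higher (20.7% called) and a median of 194 normalized counts. The 720 other tested protein-coding genes of chromosome 19 had a median of 0.09, with 39 lower and 129 higher (23.3%) and a median count of 957. Of 11 chromosome 19 genes with other zinc finger symbols, such as ZFP or ZSCAN, 2 were lower and none higher. No test between these groups was run, and they differ in count, transcript length and GC content.

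Longer transcripts had lower fold changes, among the members and among other genes. The members' longest transcripts had a median of 4255 bases, against 3910.5 for other tested protein-coding genes. Their 3′ untranslated regions had a median of 1977 bases (interquartile range 767 to 3452) against 1448 (573.75 to 2932.5), and 118 of 191 exceeded that second median. Their GC content was 42.5%, against 48.2%, and 60.1% in the other tested genes of the same chromosome.

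Across the 191 tested members, Spearman's correlation of log2 fold change with the length of the longest transcript was -0.28 (Pearson's with log10 length -0.26). It was -0.39 in the 64 members that averaged 100 or more normalized counts, and -0.59 across the 12034 other genes. Genes are not independent replicates, and all of these values share the same 6 libraries. With the length of the 3′ untranslated region alone the correlation was -0.23 in members and -0.45 in the others, with coding length -0.31 and -0.52. With GC content it was 0.26 and 0.24, and with the number of fingers -0.26 in members.

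In bins of transcript length the members' medians stood near those of other genes. Under 2 kb they were 0.11 (11 members) and 0.18, from 2 to 3 kb 0.12 (33 members) and 0.08, and from 3 to 4 kb -0.05 (34 members) and 0.01. From 4 to 6 kb the medians were -0.07 (76 members) and -0.08, and over 6 kb -0.14 (37 members) and -0.21. The order from positive to negative with length was thus present in both. Over 6 kb, 5 of 37 members were called lower (13.5%), against 38.1% of the other genes. The 2 groups of this bin differ in count, with medians of 62.9 normalized counts in the members and 478 in the others.

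**Figure D4:**
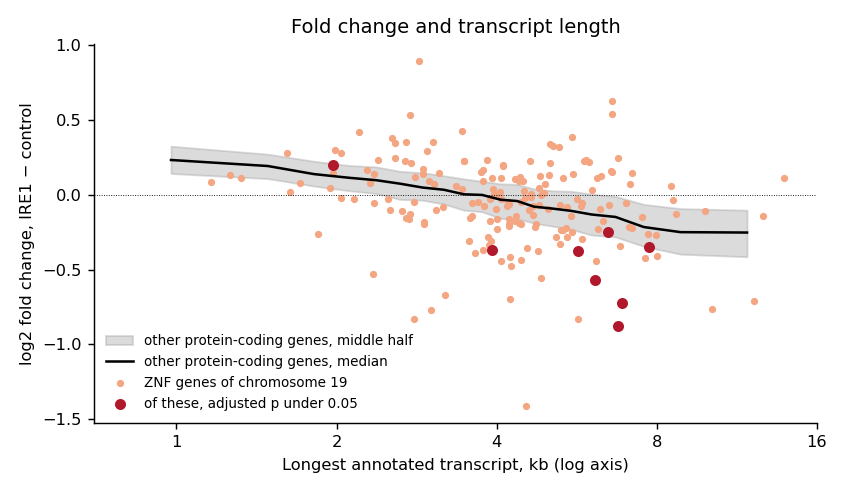
Log2 fold change (IRE1 minus control) against the longest transcript in kilobases (log axis) for the 191 tested members, with the 8 called ones in dark red, over the median (line) and interquartile range (band) of the other tested protein-coding genes in groups of like length. The line falls with length, and all 7 members called lower lie below it, the shortest of them at 3926 bases.

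The called members differed in length. The 7 called lower had longest transcripts of 3926 to 7716 bases, 6 of them over 5 kb and 6 with a KRAB box, and ZNF358, called higher, had 1968 bases. Once each library had been corrected for its trend in length and GC content, 1 member was called lower, ZNF587 (log2 fold change -0.55, edgeR adjusted p = 0.0153), and over all genes 753 were lower and 1244 higher. The other 6 called lower lost their calls with unlike fold changes. ZNF699 stood at -0.70, ZNF490 at -0.43 and ZNF45 at -0.34, ZNF100 at -0.21, and ZNF507 and ZNF791 at -0.12 and -0.08. ZNF358, at 0.12, was no longer called higher. ZNF121 (0.35, edgeR adjusted p = 0.0145) and ZNF44 (0.39, edgeR adjusted p = 0.0362) were then called higher. Before that correction these 2 genes, with longest transcripts of 7177 and 5885 bases, had log2 fold changes of 0.14 and 0.23 and were not called. The transcript that the annotation marks as canonical has 6987 bases in ZNF121 but 2636 in ZNF44. The correction used the longest transcript, so the call of ZNF44 depends on that choice of length.

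Members with the KRAB pattern (157 tested) had a median log2 fold change of -0.07, with 6 lower and none higher. Those without it (34 tested) had 0.06, with 1 lower and 1 higher. The KRAB members had the longer transcripts, with medians of 4448 against 3505 bases, lower GC content (41.9% against 58.3%) and lower counts, so these features cannot be told apart here.

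The IRE1 site in XBP1 mRNA lies in a loop, and the 6 letters CTGCAG, with U for T in the RNA, are often used to mark such a site. They are their own reverse complement, so both strands give the same matches. In the longest transcripts of the tested members CTGCAG occurred 0.448 times per kilobase, against 0.791 in the other tested protein-coding genes. At least 1 site was present in 156 of 191 members (81.7%), against 88.1% of the others, and in 67 of the 76 members of 4 to 6 kb (88.2%), against 93.7%. Members with a site had a median log2 fold change of -0.05 and the 35 without one 0.01, at median transcript lengths of 4491.5 and 3542 bases. Folding was not examined, and a match is only a run of letters.

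All 8 called members held at least 1 such match. Those in coding sequence of ZNF699 (chr19:9408596-9408625, minus strand, exon 4 of 6), ZNF507 (chr19:32845211-32845240, plus strand, exon 3 of 7), ZNF45 (chr19:44418616-44418645, minus strand, exon 10 of 10) and ZNF490 (chr19:12692401-12692430, minus strand, exon 5 of 5) are shown because these genes were called lower, with ZNF358 (chr19:7585035-7585064, plus strand, exon 2 of 2), called higher, beside them. The 6 letters are in capitals, in the direction of the transcript, on GRCh37. The second match of ZNF507 lies just downstream of the first, in the same exon (window chr19:32845244-32845273). ZNF358 holds 4 matches in its 1968 bases, all in coding sequence, and only the first is shown. The 3 matches of ZNF587 lie in its 5′ and 3′ untranslated regions. The only match of ZNF100 lies in its 5′ untranslated region, and both matches of ZNF791 lie in its 3′ untranslated region.
ZNF699: caagaggaggacCTGCAGacagtgaagaga
ZNF507: tacactcattagCTGCAGaagcccttgtca
ZNF45: tggcgttcacgaCTGCAGgctcatgagcga
ZNF490: aaaaccatgtgaCTGCAGtgtgtgtgggga
ZNF358: agctcggcgctgCTGCAGcaccagcgcaca

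Along the chromosome the members formed 9 clusters of at least 5 genes, with a new cluster begun where neighbouring starts lay over 1 Mb apart, and these held 233 members. The largest ran from ZNF628 to ZNF446 (58 members, 53 tested), and its median log2 fold change was 0.00 with 1 member, ZNF587, called. The most negative was the cluster from ZNF101 to ZNF254, close to the centromere, where 18 of 23 tested members were negative, the median was -0.22 and only ZNF100 was called. That cluster also had the lowest median GC content, 37.2%, and a low median level of 0.228.

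The cluster from ZNF175 to ZNF331 (39 members, 27 tested) had a median of -0.17, with 19 members negative and none called. In this cluster all 39 members carried the KRAB pattern. The remaining clusters had medians from -0.06 (ZNF557 to ZNF846, with ZNF699 and ZNF358) to 0.17 (ZNF302 to ZNF792, 4 tested). Whether clusters differ from one another was not tested.

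**Figure D5:**
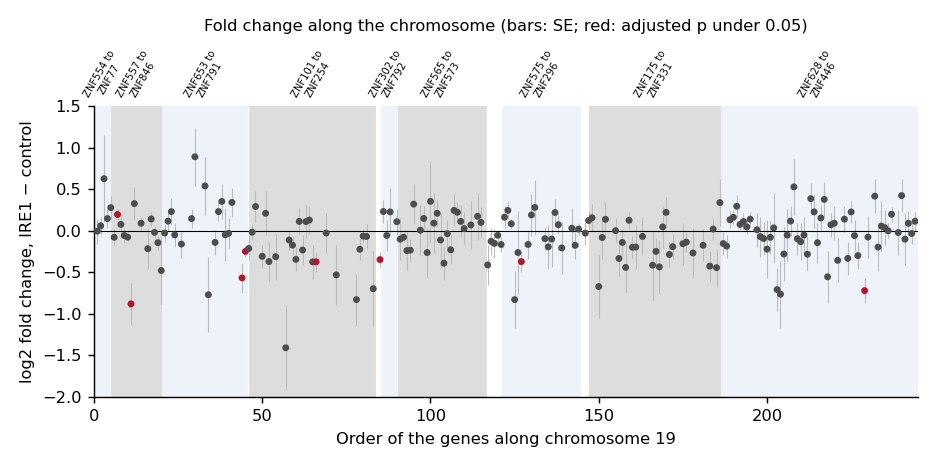
Log2 fold change with its standard error for each tested member in its order along chromosome 19, with the 9 clusters shaded in alternation and called members in red. The called members are spread over 6 places, and in the cluster from ZNF101 to ZNF254 18 of 23 points lie below 0.

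Of 16 members listed for a known function, 15 were tested and none was called, with log2 fold changes from -0.41 to 0.34 and a median of -0.06. Adjusted p-values from edgeR were 0.196 or more, 0 of the 15 had an unadjusted p under 0.05, and 8 fold changes were negative. DESeq2 called 0, but it gave no adjusted p for ZNF93, ZNF304, ZNF331, ZNF350, ZNF568 and ZNF808, which it thus could not call. The transposon repressors among them gave unlike values. ZNF91, which silences SVA elements, had 211, 225 and 190 normalized counts in the controls and 144, 180 and 210 with IRE1, with a log2 fold change of -0.22 (SE 0.128, edgeR adjusted p = 0.237). IRE1-treated replicate 3 lay within the controls, and without it ZNF91 was called at -0.36 (edgeR adjusted p = 0.0420). ZNF93, which silences LINE-1 elements, had 48.2, 53.0 and 27.8 against 69.6, 47.6 and 35.9, with overlapping groups and an edgeR adjusted p of 0.621.

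ZNF274, which marks the 3′ ends of zinc finger genes themselves and recruits SETDB1 there, had 310, 277 and 298 normalized counts in the controls and 298, 305 and 283 after IRE1. The libraries of both groups were interleaved, with a log2 fold change of 0.00 (SE 0.0892). ZNF675, an inhibitor of TRAF6 signalling, had a log2 fold change of -0.06 (SE 0.0863, edgeR adjusted p = 0.650). ZNF420, described as an inhibitor of p53, had 99.8, 112 and 63.8 normalized counts against 56.4, 65.5 and 87.4, so that control replicate 3 and IRE1-treated replicate 3 each lay with the other group. Its log2 fold change was -0.39 (edgeR adjusted p = 0.196), and without IRE1-treated replicate 3 it was called at -0.59 (edgeR adjusted p = 0.0418).

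ZNF331, an imprinted gene, had 18.5 ± 4.33 normalized counts in the controls and 23.2 ± 0.910 with IRE1 (SD, n = 3). Every treated library lay above every control, by 0.34 on the log2 scale, with an edgeR adjusted p of 0.434. ZNF473, which takes part in histone mRNA 3′ end processing, had 165, 147 and 138 against 167, 166 and 159, a log2 fold change of 0.12 (edgeR adjusted p = 0.475). ZNF382 did not pass the filter on low counts, with 7.61, 6.75 and 7.21 normalized counts in the controls and 2.40, 4.23 and 0.971 with IRE1.

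Genes listed as partners of KRAB zinc finger proteins, or as acting at the same heterochromatin, changed in both directions. Those tested had control levels from 1.97 (CHD3) to 36.7 (TRIM28), beside the members' median of 0.526 and range up to 29.4. Of 17 genes listed, 15 were tested, with 3 lower, 2 higher and 10 not called (33.3% called, against the 22.7% of all tested genes). The tested genes of the list had control means from 484 (CHD3) to 4616 (DNMT1) normalized counts. Among protein-coding genes that are no members, 34.1% were called from 500 to 2000 counts and 45.2% above 2000. TRIM28 itself had 3525 ± 93.2 normalized counts in the controls and 3772 ± 176 with IRE1 (SD, n = 3), a log2 fold change of 0.10 (edgeR adjusted p = 0.177). SETDB1 stood at -0.05 (edgeR adjusted p = 0.485).

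The 3 that were lower were ATF7IP, the partner that stabilises SETDB1 (log2 fold change -0.31, edgeR adjusted p = 0.00688), TASOR, a subunit of the HUSH silencing complex (-0.31, edgeR adjusted p = 0.00650), and the maintenance methyltransferase DNMT1 (-0.19, edgeR adjusted p = 0.00739). Their exons overlap CCDC66 in TASOR and S1PR2 in DNMT1, and their longest transcripts have 8823 (ATF7IP), 8177 (TASOR) and 7157 bases (DNMT1). The histone deacetylases HDAC1 (0.20, edgeR adjusted p = 0.0151) and HDAC2 (0.29, edgeR adjusted p = 0.00353) were higher. HDAC1 has a longest transcript of 2409 bases and HDAC2 1 of 9737, and exons of HDAC2 overlap HDAC2-AS2. Whether the calls of these genes go with length, or hold in the alternative fits, was not tested. UHRF1 had no matching identifier and ZFP57 did not pass the filter. The median log2 fold change of the 15 was 0.01.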

How the data were processed

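H929 total RNA was incubated with or without recombinant IRE1 (3 libraries each) and sequenced after poly(A) selection with a stranded kit. Per the submitters' processing notes and the study's methods, the authors trimmed reads (cutadapt 1.12), aligned them to GRCh37 with STAR 2.5.3a and counted them on Ensembl genes with HTSeq 0.6.1p1. They deposited raw gene counts per library, and a CPM table made with edgeR 3.24.3. How HTSeq treated strand and overlaps is not given in the sources used here.

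The 5 summary lines that name no gene (21.4 to 23.2% of each file's total) were left out. The 6 libraries were fitted together without covariates in edgeR 4.0.16 (R 4.3.3) with its filter on low counts, TMM scaling, the quasi-likelihood test and Benjamini-Hochberg adjustment over 14398 genes, with a threshold of 0.05. The steps were tested on simulated data with planted changes. The lowest chi-square per gene between any 2 libraries was 2.20, so none was a copy of another. P-values measure the spread between these libraries.

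Gene type, position, exons and transcripts were read from the GRCh37 version of GENCODE release 44, in which 55538 of the identifiers have a name. Matches to the C2H2 pattern were summed over the 3 forward frames of the coding sequence, and the largest sum over a gene's coding transcripts was kept. Matches out of frame may thus be counted as fingers. The KRAB box was searched in the first 150 residues of the first frame. A SCAN box was not searched. The members, gene lists and tests were chosen with earlier results of these data known, and the bins of counts after the values were seen. Members named are the 10 with the highest control level, all past the threshold, and a list with known functions. Named with them are the genes of a list of KRAB corepressors and of other proteins at the same heterochromatin. No test was made over the family as a set. The alternatives, with DESeq2 1.42.0 and limma 3.58.1 (log2 of CPM + 1, from the deposited CPM) among them, are those under the dependence on processing. The exon-level test of the study was not repeated.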

Additional observations from a re-analysis of the deposited data

How the results depend on the processing

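Against 7 members lower, 1 higher and a median log2 fold change of -0.05, DESeq2 called 3 lower (ZNF507, ZNF587 and ZNF791) and 1 higher, and gave no adjusted p for 148 of 239 members, ZNF699 and ZNF490 among them. Removing the length and GC trend left 1 lower and 2 higher with a median of 0.0135, and with the replicate block added the counts were again 1 and 2. Scaling by library size alone gave 8 lower, 0 higher (24 members at an unadjusted p under 0.05) and a median of -0.12, where the median of all genes was itself -0.07, so that the members stood 0.05 below it. In limma on the authors' CPM there were 8 lower and 0 higher (15 unadjusted). The replicate block gave 5 lower and 0 higher (17 unadjusted). The numbers do not pair the libraries, since deviations of same-numbered libraries correlated at -0.04, -0.01 and -0.11 and 0 of 6 libraries correlated best with its own number. Leaving out 1 library gave 1 to 13 lower and 0 to 3 higher, with the extremes named in the report. Among members with at least 90% unique windows 5 were lower and 0 higher. With merged exon length the correlation with length was -0.17 in members and -0.49 in other genes. With the length of the transcript marked as canonical it was -0.37 (189 members) and -0.65. Without a filter, 9 were lower and 1 higher, with upper quartile scaling 6 and 1, with at least 10 counts in every library 7 and 1, and 8 of the 10 highest levels remained among the 10 highest by longest transcript. The causes of these differences were not tested.

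Over 30 named members and 15 alternative fits, 353 of 438 values kept their direction and side of the threshold, 52 lost a call, 2 gained one and 31 changed sign, all of these 31 in 12 members that were not called. ZNF274 gave -0.00080 with at least 10 counts, -0.0743 by library size and -0.0113 without a filter, and -0.0417 to 0.0396 with 1 library left out. ZNF296 gave -0.0926 without the length and GC trend, -0.0935 with the block too, -0.0548 by library size, and -0.0493 to 0.103 with 1 library left out. Without the trend, and then with the block too, ZNF414 gave -0.0066 and -0.0067, ZNF428 -0.0751 and -0.0759, ZNF524 -0.0080 and -0.0073, ZNF568 0.137 and 0.0802, ZNF580 -0.0545 and -0.0543, ZNF581 -0.0505 and -0.0506, and ZNF675 0.0195 and 0.0199. With 1 library left out, ZNF93 ranged from -0.0602 to 0.427, ZNF224 from -0.171 to 0.0247, ZNF304 from -0.00952 to 0.212 and ZNF568 from -0.462 to 0.0909.

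Over the 191 tested members, the median was 65.7 normalized counts and the median standard error of a log2 fold change was 0.184.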
